A study of Mus musculus with 2 samples.

Results

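The cells described here are splenic myeloid cells that carried RNA of the lectins Cd209a and Clec10a together with the class II gene H2-Aa. They were chosen from 2 droplet single-cell RNA libraries of mouse spleen by counts of unique molecular identifiers (UMIs, each marking 1 captured RNA molecule) in every barcode. A barcode was called a cell with at least 500 UMIs, at least 200 genes and at most 10% of UMIs from mitochondrial genes. Cells with 1% or more of their UMIs from the neutrophil genes S100a8 and S100a9, or with any UMI of Cd79a, Cd79b or Ncr1, were set aside. Of the rest, a cell was kept with at least 3 UMIs of Cd209a and Clec10a together, at least 5 of H2-Aa, fewer than 5 of C1qa, C1qb and C1qc together, and fewer than 3 of Mki67 and Top2a together. The rule kept 419 of 13258 cells, 206 in the low-B12 library and 213 in the high-B12 library.

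Conventional dendritic cells take up antigen, load its peptides on class II MHC molecules and present them to CD4 T cells. In mouse spleen they form a cDC1 lineage that depends on Irf8 and Batf3 and a cDC2 lineage marked by Sirpa and Irf4, and both respond to the growth factor receptor Flt3. Cd209a belongs to the DC-SIGN family of C-type lectins, which bind sugars on pathogens and host cells, and Clec10a is a macrophage galactose-type lectin. In mouse spleen the pair is known from a cDC2 subset that also carries monocyte-associated genes, and Cd209a is known in monocyte-derived dendritic cells too.

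Both groups came from frozen, viable spleen suspensions sorted for CD45.2 and CD11b, with the dye DAPI in the gate, so every cell described here had passed a gate on the integrin CD11b, the product of Itgam. One library is labelled low B12 and the other high B12, and the series title places the work in the setting of Tet2-deficient blood formation. The labels used here give no genotype, strain, age, dose, route or length of treatment, nor how many mice were pooled, so what each group models beyond its B12 label cannot be stated. With 1 library per condition there is no replicate, no difference between conditions could be tested, and no p-value is given. Intervals are 95% exact intervals (Clopper-Pearson for shares, Poisson for levels, conditional binomial for ratios of levels) and cover counting error only.

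The libraries held 48884220 and 46994991 UMIs over 6510 and 6748 cells, with medians of 5695 and 4327 UMIs per cell (here and below, the low-B12 value stands first). Neutrophil RNA separated the libraries: 5223 and 3434 cells stayed under the S100a8 and S100a9 limit, and 2232 and 1749 remained once cells with B-cell or NK-cell genes were also set aside. In droplets with fewer than 100 UMIs, which hold mainly free RNA, S100a8 stood at 18272 and 46842 CPM (CPM, the UMIs of a gene per 1000000 UMIs, from counts summed over barcodes). The libraries shared 4 cell barcodes, none of them among the Cd209a and Clec10a cells. Scrublet, a doublet caller, marked 7.30% and 4.88% of all cells, and 5 (2.43%) and 2 (0.939%) of the cells described here.

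The chosen cells had medians of 9752 and 10131 UMIs and of 2822 and 2795 genes, and together held 2077937 and 2195597 UMIs. They made up 9.23% (8.06 to 10.5) of the 2232 cells left in the low-B12 library and 12.2% (10.7 to 13.8) of the 1749 in the high-B12 library. Counted over all cells, the shares were 3.16% (2.75 to 3.62) and 3.16% (2.75 to 3.60). The gap between libraries seen over the smaller population was thus absent over all cells, and more cells of the high-B12 library had been set aside for neutrophil RNA. The part of that difference in the shares was not tested, and the CD11b gate had set which dendritic cells could be counted.

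Of the markers given for these cells, Cd209a and Clec10a were used to choose them, and Flt3, H2-DMb1, Tmem176a and Ckb were not. Flt3, the receptor for the growth factor that maintains dendritic cells, had a UMI in 83% and 69% of the cells, against 2.71% and 0.737% of cells with Ncr1 and Nkg7, an NK-cell population that should lack it and whose median depth was 4474 and 4753 UMIs. After thinning each cell to 3000 UMIs, Flt3 was found in 48.5% and 39.6% of the cells. H2-DMb1, a chain of the H2-DM heterodimer that exchanges peptides on class II molecules, had a UMI in 96.6% and 96.7%, against 7.68% and 7.13% of the NK-like cells. Tmem176a, a membrane protein of intracellular vesicles, was found in 87.4% and 92% and Ckb, the brain-type creatine kinase, in 80.6% and 80.8%, against 3.28% and 2.33% and 3.73% and 2.7%. Zbtb46, a transcription factor of conventional dendritic cells, had a UMI in 35% and 35.7%, against 1.16% and 1.89% of Ly6c2 monocytes from the same libraries. All 4 markers that the rule did not use were thus well above the NK-like level, and the dendritic cell label was kept. H2-DMb1 is a class II gene, as is H2-Aa of the rule. Ckb also had a UMI in 38.6% and 34.7% of the Ly6c2 monocytes.

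Among lists of other cell types, the 13 classical monocyte genes had the highest sum. They stood at 5269 and 5870 CPM, against 32366 and 38898 CPM in Ly6c2 monocytes and beside 2389 and 2261 CPM for the 13 genes of the dendritic cell core. The 15 nonclassical monocyte genes summed to 902 and 665 CPM, the 15 cDC1 genes to 763 and 740 CPM and the 12 plasmacytoid dendritic cell genes to 554 and 589 CPM. The lists of lymphoid, granulocyte, macrophage and erythroid cells each summed to at most 677 CPM in either library. The 10 T-cell genes summed to 2.41 CPM with 8 of them at 0 in the low-B12 library, and to 72.0 CPM with none at 0 in the high-B12 library, where 1 cell described below held 24 of the 25 Cd3e UMIs. The 11 NK and innate lymphoid genes summed to 157 and 214 CPM, against 13788 and 16254 CPM in the NK-like cells. The 7 basophil and mast cell genes summed to 0 CPM in the low-B12 library, where a count of 0, by the limit of 3 counts, allows up to 1.44 CPM, and to 0.911 CPM in the high-B12 library. The 10 erythroid and platelet genes summed to 28.4 and 15.9 CPM. The 12 B-cell genes summed to 213 and 181 CPM with 3 and 4 of them at 0, and the 15 macrophage genes to 364 and 337 CPM with 4 and 2 at 0. The 14 neutrophil genes summed to 234 and 677 CPM.

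The 2 lectins varied widely from cell to cell. Cd209a (chr8:3743397-3748984, GRCm38) had a median of 6 UMIs per cell in both libraries, quartiles of 3 to 9 and 4 to 10, and a maximum of 37 in each. Clec10a (chr11:70156197-70170834) had a median of 2 UMIs in both, with maxima of 21 and 19. Both lectins were detected in 127 (61.7%) and 129 (60.6%) of the cells, Cd209a alone in 67 (32.5%) and 75 (35.2%), and Clec10a alone in 12 (5.83%) and 9 (4.23%). The top 10% of cells by Clec10a held 40.2% and 38.6% of its UMIs, and those by Cd209a 28.6% and 27.2%. In the NK-like cells, Cd209a had a UMI in 1.36% and 0.614% and Clec10a in 1.47% and 0.246%. These values come from the genes that chose the cells and are a description.

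**Figure D1:**
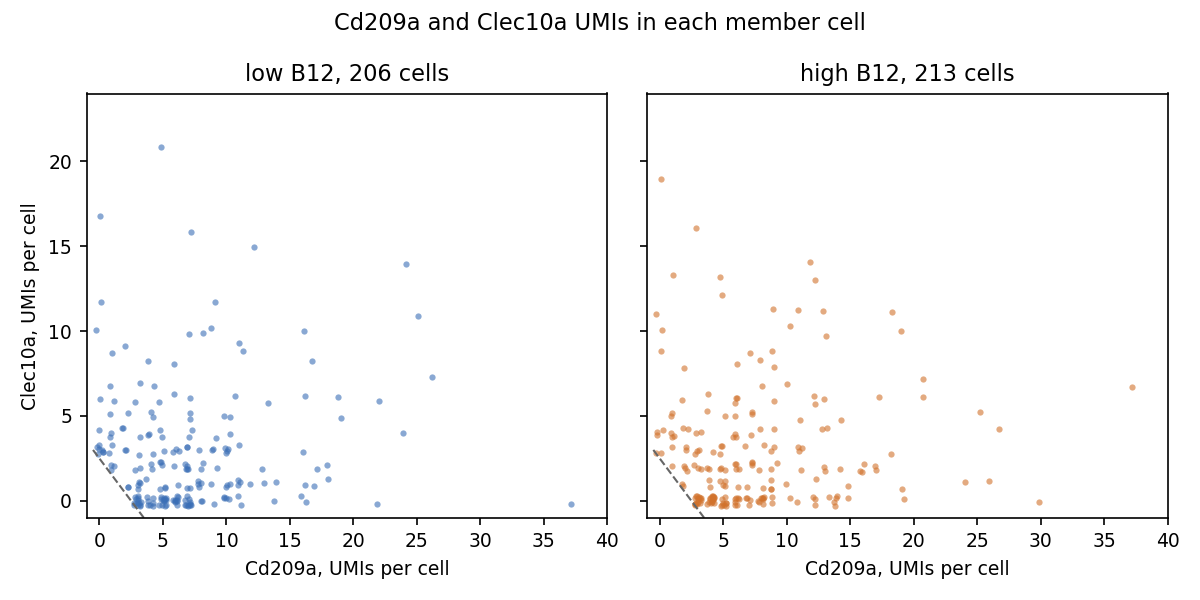
UMIs of Cd209a (horizontal axis) and Clec10a (vertical axis) in every chosen cell, 1 panel per library, with points shifted slightly at random so that equal counts can be seen; the dashed line marks the limit of 3 UMIs for both lectins together. In both panels cells with Cd209a and no Clec10a outnumber those with Clec10a and no Cd209a, 67 to 12 and 75 to 9.

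The limit of 3 UMIs did not fall in a gap. Cells that met the rest of the rule with exactly 2 lectin UMIs numbered 35 in each library, and cells with exactly 3 numbered 25 and 21. Flt3 stood at 164 and 199 CPM in the cells with 2 lectin UMIs and at 123 and 144 CPM in those with 3, and H2-DMb1 at 398 and 563 CPM against 439 and 531 CPM. The class II limit set apart few cells: 11 and 15 cells met the rest of the rule with 0 to 4 H2-Aa UMIs, and their Lyz2 was 16754 and 17792 CPM. Of the chosen cells, 5 and 9 had 5 to 9 H2-Aa UMIs. The limit on the complement genes left out 4 and 4 cells, and the limit on Mki67 and Top2a left out 3 and 1.

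Other lectin genes of the cells were at similar levels in both libraries. The list of C-type lectin receptors held 26 genes, of which 15 were measured, meaning at least 50 UMIs over both libraries. Clec4b1, a receptor of the Dcir and Dcar group, stood at 162 and 167 CPM, a ratio of 1.03 (0.889 to 1.2), high over low. Clec4a3 stood at 179.5 and 195 CPM, a ratio of 1.09 (0.945 to 1.254), Clec4a2 at 117 and 122 CPM, a ratio of 1.04 (0.867 to 1.24) and Clec4a1 at 135 and 111 CPM, a ratio of 0.818 (0.686 to 0.975). Clec4a1 was the only one of these 4 whose interval lay off 1. Clec12a, an inhibitory receptor, stood at 113 and 120.2 CPM and Clec2d, a ligand of the NK receptor family, at 151 and 168 CPM. Mgl2, the close relative of Clec10a, was found in 15 cells of each library with 64 and 54 UMIs, so it marked a small group of cells. Mrc1, the mannose receptor, was at 54.9 and 49.6 CPM. Mgl2 and Clec10a are close in sequence, as are Cd209a and its relatives Cd209c and Cd209d, so the counting could have split or dropped reads among them.

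Class II genes, of which the rule used H2-Aa alone, carry the main known function of dendritic cells. The deposited files count 3' tags, so levels below compare a gene with itself and not with other genes. Cd74, the invariant chain that guides class II molecules to the endosome, stood at 17707 and 19330.0 CPM. H2-Ab1 and H2-Eb1, chains of the I-A and I-E molecules, stood at 7048 and 8122 CPM and at 6964 and 8345 CPM. H2-Oa and H2-Ob, the chains of the H2-O molecule that restrains H2-DM, stood at 169.9 and 210.4 CPM and at 77.5 and 96.1 CPM. Ciita, the co-activator that assembles on class II promoters, stood at 321 and 293 CPM. H2-Aa, which the rule used, had medians of 73.5 and 86 UMIs per cell, with a range from 7 to 181 and from 5 to 214.

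Ciita acts through factors bound at the X and Y boxes of class II promoters, so promoter windows of 6 class II genes of these cells are printed to show what their promoters share. Each line runs 5' to 3' on the strand of the gene, from RefSeq on GRCm38.p6, with the Y-box core TGATTGG in capitals and, where it matched, the X1 box, searched as GNAAC followed directly by NNATG, in capitals before it.
H2-Aa chr17:34287837-34287923, minus strand: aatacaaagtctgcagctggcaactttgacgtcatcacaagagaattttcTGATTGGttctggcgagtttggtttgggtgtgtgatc
H2-DMb1 chr17:34153078-34153164, plus strand: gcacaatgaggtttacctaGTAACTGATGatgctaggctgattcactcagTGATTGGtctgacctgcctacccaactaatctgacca
H2-DMb2 chr17:34145107-34145193, plus strand: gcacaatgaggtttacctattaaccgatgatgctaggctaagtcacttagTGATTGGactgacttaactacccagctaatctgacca
H2-Eb1 chr17:34305756-34305842, plus strand: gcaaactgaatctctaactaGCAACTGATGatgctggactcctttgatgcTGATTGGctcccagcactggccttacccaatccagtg
H2-Oa chr17:34092284-34092370, plus strand: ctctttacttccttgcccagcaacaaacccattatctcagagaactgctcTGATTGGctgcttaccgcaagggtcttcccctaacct
H2-Ob chr17:34238796-34238882, plus strand: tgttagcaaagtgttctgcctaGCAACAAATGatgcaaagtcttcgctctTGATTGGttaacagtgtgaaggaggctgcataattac
The core TGATTGG lay between 45 and 92 bases before the annotated start in these 6 windows. The lines are 87 bases of promoter windows that run from 250 bases before to 50 after each start. The core was found in 2568 of 32851 such windows (7.82%) and in 8 of the 11 of class II genes and their regulators. The 8 genes were H2-Aa, H2-DMb1, H2-DMb2, H2-Eb1, H2-Eb2, H2-Oa, H2-Ob and Rfx5, and H2-DMa and Rfxank had no match. The X1 box was found in 823 windows (2.51%) and in 4 of those 11, the windows of H2-DMb1, H2-Eb1, H2-Eb2 and H2-Ob. Both strands were searched, the matches of both motifs lie apart in the printed windows, and a match is a description of the sequence.

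Beyond the markers, Sirpa, the signal-regulatory receptor that marks cDC2, had a UMI in 72.8% and 78.4% of the cells, Klf4 in 82% and 79.3% and Itgam in 75.7% and 63.4%. Irf4, the interferon regulatory factor of cDC2, had a UMI in 30.1% and 26.3%, against 14.7% and 7.87% of dendritic cells with neither lectin. Those comparison cells had no Cd209a or Clec10a UMI, at least 5 of H2-Aa, at least 1 of Flt3 and none of Siglech or Ms4a1. They numbered 204 and 127, with medians of 9321 and 9615 UMIs. Genes of the Notch2-dependent cDC2 subset differed one from another. Esam had a UMI in 1.46% and 0.469% and Cd4 in 4.37% and 3.29%, against 15.2% and 6.3% and 9.8% and 5.51% of the comparison cells. Hes1, a target of Notch signalling, had one in 18% and 19.7%, against 28.9% and 33.9%. Notch2 itself had one in 86.4% and 85.4%, against 78.4% and 78%. The 9 genes of the list summed to 410.5 and 392.2 CPM, against 570.2 and 467 CPM, and 2 of the 7 that passed the filter were at least 2-fold lower in both libraries. Of all 8769 genes that passed it, 3.09% were lower by as much.

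Genes linked to monocytes were present in the same cells. Ccr2, the chemokine receptor that draws monocytes from the marrow, had a UMI in 79.1% and 75.6% of the cells and Csf1r, the receptor for macrophage colony-stimulating factor, in 63.6% and 54%. After thinning, Csf1r was found in 34% and 23.6%, against 4.02% and 3.26% of the NK-like cells. Flt3 and Csf1r were both detected in 102 (49.5%) and 77 (36.2%) of the cells, and neither in 6 and 28. Ccr2 also had a UMI in 50.2% and 52.7% of the NK-like cells, so its share here stands above that level by less than the share of Csf1r does. Lyz2, lysozyme of macrophages and monocytes, had medians of 7.5 and 7 UMIs per cell but maxima of 391 and 491, and the top 10% of cells held 58.3% and 62.9% of its UMIs. The dendritic cells with neither lectin carried monocyte genes too. Their 13 classical monocyte genes summed to 4346.5 and 6406.5 CPM, against 5269 and 5870 CPM in the chosen cells. Lyz2 stood at 2493 and 4015 CPM there, against 2949 and 3546 CPM. Ccr2 and Csf1r were lower there, at 208 and 247 CPM against 425 and 418 CPM and at 99.5 and 85.9 CPM against 158 and 118 CPM.

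Because Lyz2 spread so widely, the cells were ranked by Lyz2 per UMI within each library and divided in 3 groups of equal size, a division chosen after the values were seen. The groups held 69, 69 and 68 cells and 71, 71 and 71 cells. They are ranges and not types: 36 and 40 cells lay within a ratio of 5 to 4 of a limit between groups. Free RNA also carried Lyz2, at 7332 and 8352 CPM in droplets with fewer than 100 UMIs.

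Along that order Ccr2, Csf1r and F13a1 were higher, and Flt3, Zbtb46 and Itgax lower, in the highest than in the lowest group in both libraries; these genes were picked after their values were seen. From lowest to highest Lyz2, Ccr2 stood at 181, 408 and 667 CPM with low B12 and 185, 318 and 719 CPM with high B12. Csf1r stood at 86, 123 and 256 CPM with low B12 and 64.6, 81.6 and 198 CPM with high B12. F13a1, the factor XIII subunit of monocytes, stood at 2.96, 72.9 and 335 CPM with low B12 and 2.87, 27.7 and 264 CPM with high B12. Flt3 stood at 265, 279.7 and 124 CPM with low B12 and 248, 167 and 104 CPM with high B12. Zbtb46 stood at 90.4, 47.6 and 21.9 CPM with low B12 and 63.2, 55.3 and 36.1 CPM with high B12. Itgax, the CD11c integrin chain, stood at 326, 121 and 60.2 CPM with low B12 and 251, 156 and 38.7 CPM with high B12. The middle group was lower than the lowest for Flt3 only in the high-B12 library. Other dendritic cell genes did not take that direction. Irf8 stood at 43, 47.6 and 115 CPM with low B12 and 30.1, 80.2 and 139 CPM with high B12, and Irf4 at 14.8, 47.6 and 64.3 CPM and 31.6, 30.4 and 42.5 CPM, both with the highest value where Lyz2 was highest. Sirpa stood at 194, 173 and 200 CPM with low B12 and 215, 169 and 188 CPM with high B12.

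The lectins themselves did not follow the Lyz2 order in 1 direction. Cd209a stood at 626, 903 and 578 CPM with low B12 and 723, 808 and 647 CPM with high B12, with the middle group highest in both libraries. Clec10a stood at 162, 329 and 349 CPM with low B12 and 148, 278 and 402 CPM with high B12, with the lowest value in the cells with least Lyz2. H2-DMb1 stood at 474, 579 and 551 CPM with low B12 and 611, 643 and 826 CPM with high B12, whereas H2-Eb1 stood at 8871, 7154 and 5031 CPM with low B12 and 10529, 8996 and 5778 CPM with high B12. H2-Oa in the lowest and highest groups was 354 and 39.7 CPM in the low-B12 library and 340.2 and 70.9 CPM in the high-B12 library. Klrd1, a lectin-like receptor chain better known from NK cells, stood at 557, 585 and 212 CPM with low B12 and 680.4, 378 and 177 CPM with high B12.

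Over 5946 genes compared, 167 were at least 2-fold higher and 151 at least 2-fold lower in the highest than in the lowest Lyz2 group in both libraries. Of those that reached 200 CPM, the genes higher by most included Apoe, which carries lipid, at 745 against 26.7 CPM and 704 against 25.8 CPM. Cebpb, a transcription factor of monocytes and macrophages, stood at 442 against 37.1 CPM and 278 against 48.8 CPM. Those lower included Ltb, lymphotoxin beta, at 28.7 against 265 CPM and 15.5 against 192 CPM. Adgrl3, an adhesion receptor, stood at 150 against 806 CPM and 166 against 690 CPM, and Wdfy4, known for cross-presentation, at 149 against 489 CPM and 126 against 418 CPM.

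**Figure D2:**
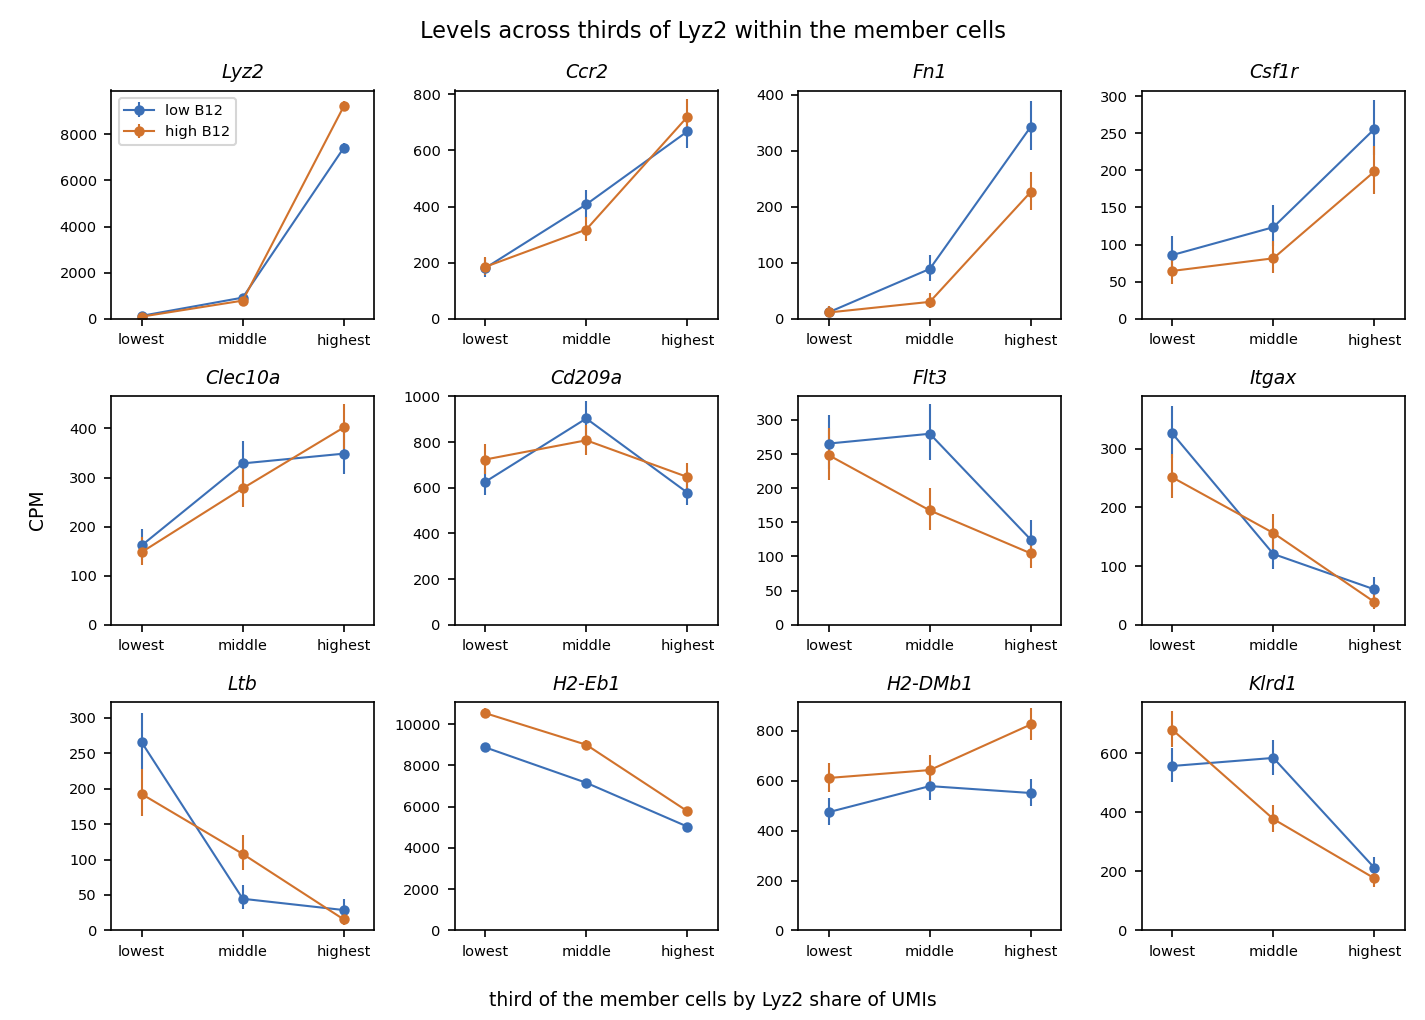
Level of 12 genes (CPM of summed UMIs, vertical axis) in the lowest, middle and highest group of cells ranked by Lyz2, for both libraries, with 95% Poisson intervals as bars. Ccr2, Csf1r and Fn1 are highest where Lyz2 is highest, and Itgax and Ltb are lowest there, in both libraries; Lyz2 itself set the order.

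The chosen cells were compared with the dendritic cells with neither lectin, gene by gene in each library. Of 8769 genes, 86 (0.981%) were at least 2-fold higher and 271 (3.09%) at least 2-fold lower in the chosen cells in both libraries. With 1 library per condition the differences carry no test, and the rule set Cd209a and Clec10a apart by construction.

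The 15 leading genes higher in the chosen cells were of several kinds, among them the chemokines Ccl9 and Ccl6 and the transcription regulators Bach2, Foxp1 and Hivep2. Of 31 listed cytokines and chemokines 19 passed the filter, with 2 at least 2-fold higher and 2 at least 2-fold lower in both libraries. Wfdc17, a small secreted protease-inhibitor-like protein, stood at 475 and 582 CPM against 151 and 165 CPM, which is 3.16-fold (2.78 to 3.6) and 3.53-fold (3.05 to 4.11). Ccl9, a chemokine, stood at 271 and 205 CPM against 56 and 74.1 CPM, and Ccl6, of the same chemokine family, at 382 and 369 CPM against 114 and 178 CPM. Cx3cr1, the fractalkine receptor, stood at 252 and 222 CPM against 86.4 and 95.4 CPM. Ifitm3, an antiviral membrane protein, stood at 3374 and 3564 CPM against 1121 and 1674 CPM.

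Klrd1 stood at 445 and 403 CPM against 173 and 176 CPM, and had a UMI in 83.5% and 76.1% of the chosen cells. In the NK-like cells 95.6% and 96.3% had a Klrd1 UMI. Nkg7, a granule gene of NK cells, had one in 1.94% and 1.41% of the chosen cells. Bach2, a transcriptional repressor best known from lymphocytes, stood at 305 and 233 CPM against 97 and 106 CPM, with a UMI in 78.6% and 74.2% of the chosen cells and 68% and 61.1% of the NK-like cells. Emb, an adhesion glycoprotein, Pid1, Foxp1, Hivep2, Cybb, Ms4a6c, Fxyd5 and Ifi27l2a completed the 15 leading genes, each at least 1.88-fold higher in both libraries.

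Genes lower in the chosen cells included some known from cDC1 and from mature dendritic cells. Irf8, on which cDC1 depend, stood at 69.8 and 85.2 CPM against 488 and 597 CPM, 6.99-fold and 7.0-fold lower. Id2, another cDC1 regulator, stood at 172 and 158 CPM against 744 and 626 CPM. All 15 cDC1 genes together summed to 763 and 740 CPM, against 2397 and 2673 CPM. Xcr1, the cDC1 chemokine receptor, had a UMI in 0.971% and 0.469% of the chosen cells and in 12.7% and 18.9% of the comparison cells. Of 14 cDC1 genes that passed the filter, 12 were at least 2-fold lower in both libraries and none as much higher. Detection did not always differ: Batf3 had a UMI in 69.9% and 66.7%, against 72.5% and 63.8% of the comparison cells. Clec9a, a cDC1 lectin, had one in 24.3% and 21.6%, against 24.5% and 27.6%. The 13 genes of mature migratory dendritic cells summed to 258 and 578 CPM, against 1897 and 1017 CPM, and Ccl5, mostly from 1 high-B12 cell described below, made up 60.2 and 405 CPM of the sum in the chosen cells. Ccr7, the receptor that guides mature dendritic cells to lymph nodes, had no UMI in any chosen cell (0 of 206 and 0 of 213, which by the limit of 3 counts allow shares of up to 1.46% and 1.41%) and had one in 17.2% and 8.66% of the comparison cells. Apol7c had 2 and 1 UMIs in the chosen cells and stood at 243 and 82 CPM in the comparison cells. Tbc1d4 stood at 80.8 and 39.2 CPM against 776 and 277 CPM, and Fabp5, a fatty-acid-binding protein, at 34.6 and 41.4 CPM against 590.0 and 244 CPM. Cxcl9, a chemokine, stood at 23.6 and 5.47 CPM against 132 and 212 CPM, and 1 cell held 36 of its 49 UMIs in the low-B12 chosen cells.

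Class II itself hardly separated these populations. Of 13 class II genes none was at least 2-fold higher and 1 was lower in both libraries, with a median log2 difference of -0.06 and 0.25. Both populations were chosen with the same lower limit on H2-Aa, itself a class II gene, so this likeness is partly set by that choice. The part of the choice in it was not tested. H2-DMb1 stood at 535 and 698 CPM against 347 and 438 CPM, 1.54-fold (1.4 to 1.7) and 1.59-fold (1.44 to 1.76) higher. Ckb, given as a marker of the chosen cells, stood at 274 and 293 CPM against 286 and 293 CPM, and Tmem176a at 470.2 and 615 CPM against 423 and 335 CPM, so both were shared with the comparison cells. Flt3, used to choose the comparison cells, stood at 220.4 and 171 CPM against 273 and 256 CPM. Of 26 listed lectin genes 19 passed the filter, 7 of them at least 2-fold higher and 2 lower, the first group including the rule genes. Clec4b1 stood at 162 and 167 CPM against 25.6 and 41.8 CPM, and Mrc1 at 54.9 and 49.6 CPM against 2.41 and 3.94 CPM. Clec9a, the cDC1 lectin that senses dead cells, stood at 32.2 and 31.9 CPM against 84.5 and 95.4 CPM.

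**Figure D3:**
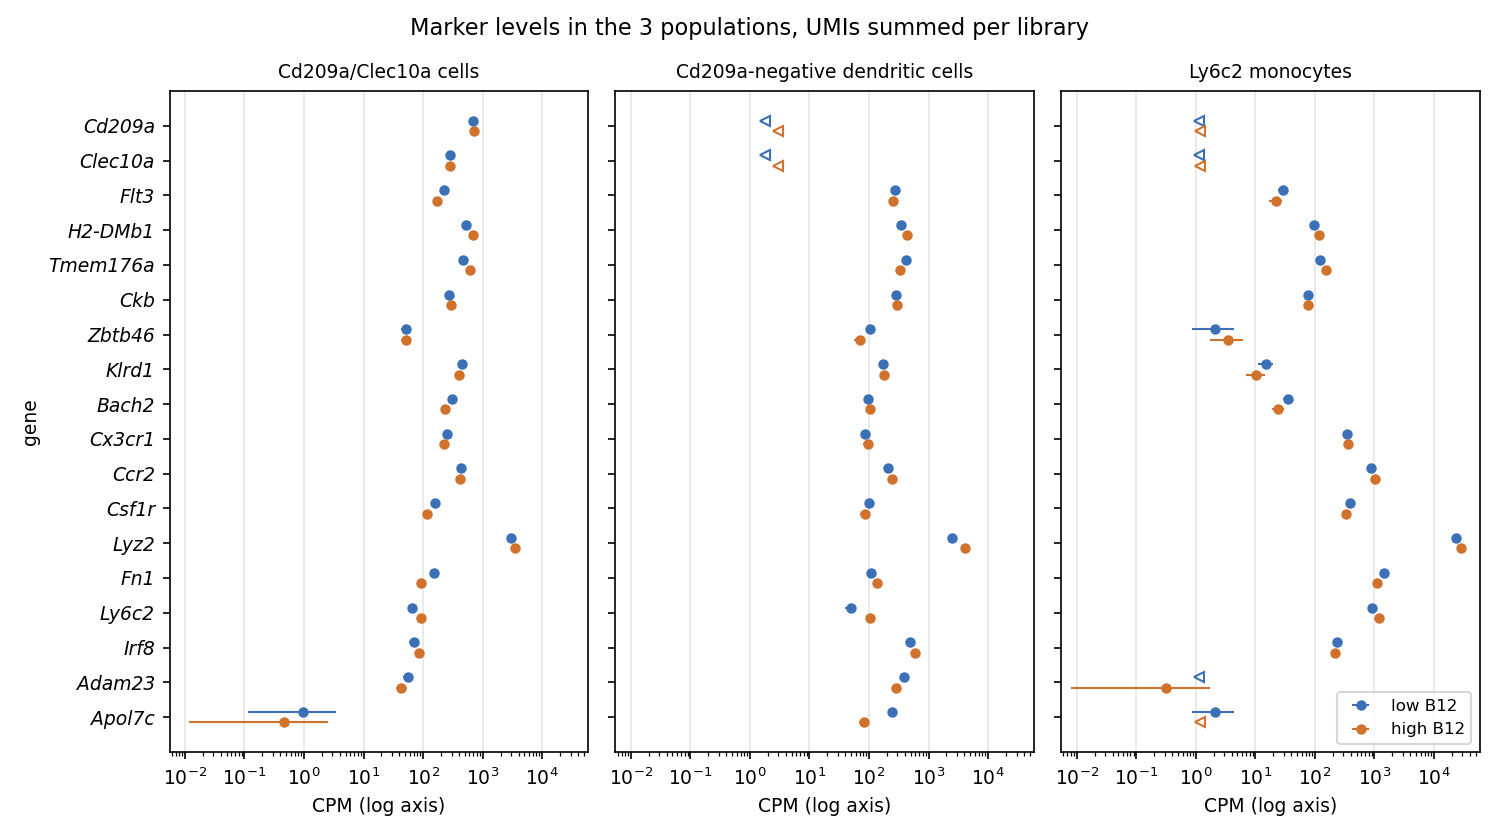
Level of 18 genes (CPM of summed UMIs, logarithmic horizontal axis) in the chosen cells, the dendritic cells with neither lectin and the Ly6c2 monocytes, in both libraries, with 95% Poisson intervals; open triangles mark the upper limit where no UMI was counted. Flt3 is lowest in the monocytes, Irf8 is lower in the chosen cells than in the other dendritic cells, and Lyz2 is highest in the monocytes.

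The Ly6c2 monocytes had neither lectin, at least 3 UMIs of Ly6c2 and at least 1 of Ccr2, and numbered 345 and 317 cells with medians of 9105 and 9699 UMIs. Against them, 435 of 9249 genes (4.70%) were at least 2-fold higher and 494 (5.34%) at least 2-fold lower in the chosen cells in both libraries. Of 14 class II genes 11 were higher, with a median log2 difference of 3.68 and 3.49. The rule asked the chosen cells, and not the monocytes, for H2-Aa. H2-Eb1 stood at 6964 and 8345 CPM against 235 and 274 CPM, and Ciita at 321 and 293 CPM against 25.8 and 33.2 CPM.

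Of 13 genes of the dendritic cell core, 10 were higher in both libraries and none lower, with a median log2 difference of 2.83 and 3.14. Flt3 stood at 220.4 and 171 CPM against 29.2 and 21.8 CPM, 7.56-fold (6.05 to 9.52) and 7.82-fold (6.04 to 10.3) higher. Dpp4, the dipeptidase CD26, stood at 218 and 224 CPM against 21.9 and 24.1 CPM, and Bcl11a, a transcription factor of dendritic cell development, at 238 and 248 CPM against 54.7 and 53.8 CPM. Klrd1 at 15.2 and 10.1 CPM and Bach2 at 34.9 and 24.4 CPM in the monocytes were lower than in either dendritic cell population. Slamf7, a receptor of the SLAM family, stood at 283 and 317 CPM against 25.2 and 26.9 CPM.

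Of 13 classical monocyte genes, 12 were lower in the chosen cells and none higher, with a median log2 difference of -2.98 and -3.04. The list holds Ly6c2 and Ccr2, which were used to choose the monocytes, so the count is partly set by that choice. Lyz2 stood at 2949 and 3546 CPM against 23227 and 28065 CPM, 7.88-fold and 7.92-fold lower. Chil3, a chitinase-like protein of classical monocytes, stood at 14 and 4.1 CPM against 677 and 1141 CPM. Fn1, fibronectin, stood at 154 and 93.8 CPM against 1431 and 1081 CPM, and Hp, haptoglobin, at 28.9 and 38.7 CPM against 590.2 and 755 CPM. Of 28 listed genes of Toll-like receptors and other sensors 22 passed the filter, 8 of them lower and 2 higher. Ifi27l2a, Wfdc17 and Emb, which set the chosen cells apart from the other dendritic cells, had a UMI in 89.9% and 94.3%, 93.6% and 95% and 91.9% and 94.3% of the monocytes.

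The study compared high with low B12. In the chosen cells 7112 genes were measured; 208 (2.92%) were at least 1.5-fold higher and 557 (7.83%) at least 1.5-fold lower in the high-B12 library. Counted by direction alone, 2810 (39.5%) were higher and 4302 (60.5%) lower, and the median log2 ratio was -0.08. Scaled to that median in place of total UMIs, 310 were higher and 332 lower by 1.5-fold; that scaling centres the genes at 0 by construction. Gene length moved with the ratio. Over 4 equal groups of 1778 genes by the span of the gene, the median log2 ratio ran from 0.05 for the shortest to -0.02, -0.13 and -0.24 for the longest, and the part of this in the gene groups below was not tested.

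**Figure D4:**
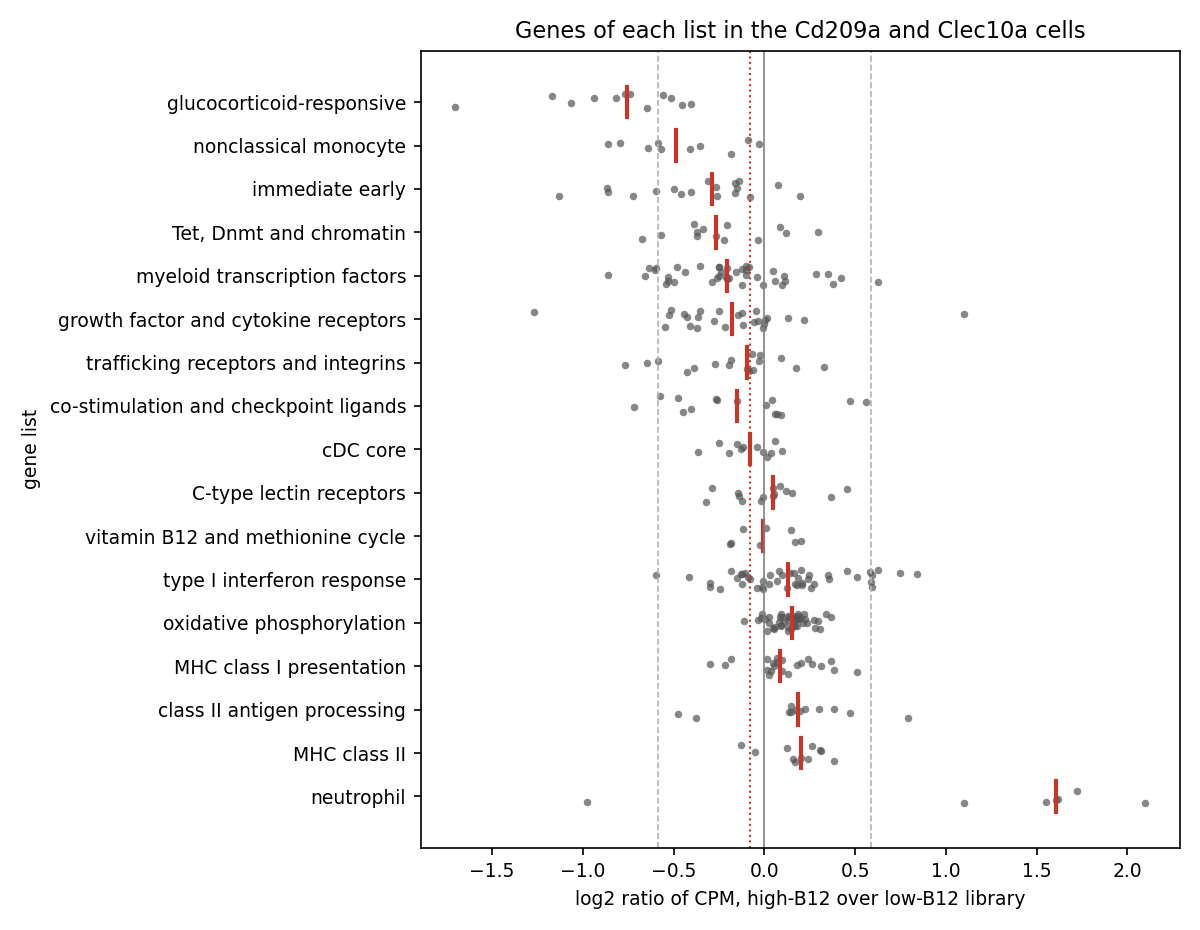
Log2 ratio of CPM, high over low B12 (horizontal axis), for every measured gene of 17 lists in the chosen cells, each point 1 gene, with a red bar at the median of the list, a dotted red line at the median of all 7112 genes (-0.08) and dashed lines at 1.5-fold. All 12 genes of the glucocorticoid-responsive list lie below 0 and 9 of 11 class II genes lie above 0, H2-Aa of the rule among the 9.

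Of 590 genes that reached 200 CPM in at least 1 library, 5 were higher and 36 lower with high B12 by a ratio whose interval left out 5 to 4. Among the 5 were Ccl5, Ccl4, Ifi27l2a and Cst3. Among the 15 with the largest ratios downward were Tsc22d3, Rgs1, Stk10, Spag9, Dusp2, Arhgap26, Ccnd3, Brd2, Cd44, Klf13, Gpr141, Wsb1, Lrmda and Klf2. Stk10, a kinase of lymphocyte migration, stood at 247 and 142 CPM, a ratio of 0.574 (0.497 to 0.663), and Spag9, a scaffold of JNK signalling, at 305 and 180.4 CPM, a ratio of 0.592 (0.521 to 0.672). Ccnd3, a D-type cyclin, stood at 378 and 235 CPM, a ratio of 0.621 (0.554 to 0.695).

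Genes known to respond to glucocorticoids were lower in the high-B12 library. All 12 measured genes of a list of 13 were lower, 8 of them by at least 1.5-fold, with a median log2 ratio of -0.75. Of all genes in the chosen cells 60.5% were lower, 7.83% by 1.5-fold. Tsc22d3 (chrX:140539528-140600659), which encodes the glucocorticoid-induced leucine zipper, stood at 259 and 135 CPM, a ratio of 0.521 (0.45 to 0.601). It had a UMI in 160 of 206 and 128 of 213 cells, and no single cell held more than 14 of its 538 UMIs or 9 of its 296. Cdkn1a, the cell-cycle inhibitor p21, stood at 76.5 and 36.4 CPM, a ratio of 0.476 (0.359 to 0.627). Sgk1, a kinase, stood at 102 and 61 CPM, a ratio of 0.598 (0.478 to 0.746), and Cxcr4, the chemokine receptor for retention in marrow, at 49.1 and 28.7 CPM, a ratio of 0.585 (0.42 to 0.808).

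The lower-count members of the list leaned the same way. Ddit4, an inhibitor of mTOR signalling, stood at 36.1 and 15.9 CPM, a ratio of 0.442 (0.287 to 0.668), and Klf9 at 18.3 and 5.47 CPM, a ratio of 0.299 (0.142 to 0.584) on 38 and 12 UMIs. Per1, of the circadian clock, stood at 42.8 and 27.3 CPM, a ratio of 0.638 (0.452 to 0.895). Fkbp5, a co-chaperone of the glucocorticoid receptor, stood at 15.4 and 8.65 CPM, a ratio of 0.562 (0.301 to 1.02), with an interval that reached 1. Nr3c1, the receptor itself, stood at 115 and 80.6 CPM, a ratio of 0.701 (0.574 to 0.855), and Dusp1, a phosphatase, at 828 and 627 CPM, a ratio of 0.757 (0.705 to 0.813). In the Ly6c2 monocytes all 12 measured genes of the list were lower, 6 by at least 1.5-fold, with a median of -0.59, and in the other dendritic cells 9 of 10 were lower, 2 by 1.5-fold, with a median of -0.38. Of all genes, 60.4% in the monocytes and 54.6% in the other dendritic cells were lower, 6.32% and 8.99% by 1.5-fold, and the difference between populations was not tested.

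Genes of nonclassical monocytes and of early activation were also lower. All 10 measured nonclassical genes were lower, 4 by at least 1.5-fold, where 60.5% of all genes were lower, 7.83% by that much. The median log2 ratio of the list was -0.49. Nr4a1, the orphan nuclear receptor that nonclassical monocytes need, stood at 166 and 91.1 CPM, a ratio of 0.55 (0.46 to 0.657) and had a UMI in 123 and 89 cells. Spn, the sialoprotein CD43, stood at 71.7 and 46 CPM, a ratio of 0.642 (0.493 to 0.831), and Itgal, the LFA-1 integrin chain, at 105 and 70.1 CPM, a ratio of 0.666 (0.538 to 0.822). Cx3cr1 stood at 252 and 222 CPM, a ratio of 0.881 (0.778 to 0.999). In the Ly6c2 monocytes 11 of 14 nonclassical genes were lower, 5 by 1.5-fold, with a median of -0.48. In the other dendritic cells 5 of 11 were lower, 1 by 1.5-fold, with a median of 0.09. Of all genes, 60.4% in the monocytes and 54.6% in the other dendritic cells were lower. In the chosen cells 16 of 18 immediate early genes were lower, 5 by 1.5-fold (background 60.5% and 7.83%), with a median of -0.29. The lists overlap: Nr4a1 is in the nonclassical, the immediate early and the myeloid transcription factor list, and Klf2 is in the latter pair. Rgs1, a regulator of G-protein signalling, stood at 225 and 123 CPM, a ratio of 0.548 (0.47 to 0.638), Dusp2 at 200.2 and 121 CPM, a ratio of 0.605 (0.517 to 0.708) and Klf2 at 688 and 454 CPM, a ratio of 0.66 (0.608 to 0.716). Fos stood at 2179.6 and 1819 CPM, a ratio of 0.834 (0.799 to 0.871) while its partner Jun stood at 1847 and 1943 CPM, a ratio of 1.05 (1.01 to 1.1).

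Class II genes leaned higher by small amounts. Of 11 measured class II genes 9 were higher in the high-B12 library, none by 1.5-fold, with a median log2 ratio of 0.20. H2-Aa, which the rule used, is among the 9, and 39.5% of all genes were higher. H2-Eb1 stood at a ratio of 1.2 (1.17 to 1.22), H2-Ab1 at 1.15 (1.13 to 1.18) and Cd74 at 1.09 (1.08 to 1.11). H2-DMb1 (chr17:34153072-34160230) stood at 535 and 698 CPM, a ratio of 1.3 (1.21 to 1.41), with medians of 5 and 7 UMIs per cell. H2-Oa stood at 1.24 (1.08 to 1.43) and H2-Ob at 1.24 (1.01 to 1.53). The exceptions were Ciita, at 0.915 (0.82 to 1.02), and Rfxap, at 0.964 (0.652 to 1.42), both regulators. H2-DMb1, H2-Eb1, H2-Oa and H2-Ob are among the genes whose Y-box windows are printed above. H2-DMa, which had no match, stood at 708 and 789 CPM, a ratio of 1.115 (1.04 to 1.2). A link of the Y box to these ratios was not tested. Free RNA differed the other way: H2-Eb1 in droplets with fewer than 100 UMIs stood at 2511 and 1532 CPM.

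Genes that process antigen for class II leaned the same way. Of 12 measured genes 10 were higher, 1 by 1.5-fold (background 2.92%), with a median of 0.19, where 39.5% of all genes were higher. Cst3, the cathepsin inhibitor cystatin C, stood at 2381 and 3102 CPM, a ratio of 1.3 (1.26 to 1.35). Ifi30, the lysosomal thiol reductase, stood at 1051 and 1294 CPM, a ratio of 1.23 (1.16 to 1.3) and Ctsh, a cathepsin, at 559.7 and 655 CPM, a ratio of 1.17 (1.08 to 1.27). Ctsb, another cathepsin, stood at 266 and 205 CPM, a ratio of 0.77 (0.679 to 0.874) and Cd83, which stabilises class II at the surface, at 87.6 and 62.9 CPM, a ratio of 0.718 (0.571 to 0.90). In the other dendritic cells 4 of 12 class II genes were higher, with a median of -0.05, and in the Ly6c2 monocytes 8 of 9, with a median of 0.22. Of all genes, 45.4% in the other dendritic cells and 39.6% in the monocytes were higher.

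Interferon-stimulated genes leaned higher. Of the 46 measured members of the type I list 29 were higher, 7 of them by 1.5-fold (background 2.92%), and 1 was lower by as much (background 7.83%), with a median of 0.13, where 39.5% of all genes were higher. Ifi27l2a (chr12:103442167-103443680) stood at 918 and 1419 CPM, a ratio of 1.55 (1.46 to 1.64), in 160 and 179 cells. Ifit3 stood at 28.9 and 51.9 CPM, a ratio of 1.8 (1.3 to 2.5), Ifi203 at 167 and 237 CPM, a ratio of 1.43 (1.24 to 1.64) and Rnf213 at 123 and 92.5 CPM, a ratio of 0.75 (0.621 to 0.906). Ifitm3 stood at 3374 and 3564 CPM, a ratio of 1.06 (1.02 to 1.09). In the Ly6c2 monocytes 45 of 48 were higher, 15 by 1.5-fold (background 2.25%), with a median of 0.39, where 39.6% of all genes were higher. In the other dendritic cells 31 of 41 were higher, 7 by 1.5-fold (background 4.40%), with a median of 0.31, where 45.4% of all genes were higher.

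The interferon gamma list was mixed, with 7 of 17 higher, where 39.5% of all genes were higher. Socs3, a feedback inhibitor of cytokine receptors, stood at 22.6 and 67.9 CPM, a ratio of 3.0 (2.15 to 4.26), in 25 and 54 cells, and in free RNA at 69.2 and 148 CPM. Cxcl10 stood at 52 and 9.56 CPM, a ratio of 0.184 (0.109 to 0.296), but 1 cell of the low-B12 library held 57 of its 108 UMIs there, and without each top cell it stood at 24.5 and 6.83 CPM. Cxcl9 stood at 23.6 and 5.47 CPM, with 36 of 49 low-B12 UMIs in 1 cell, and without each top cell at 6.26 and 3.19 CPM. Irf1 stood at 143 and 98.4 CPM, a ratio of 0.688 (0.575 to 0.823).

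The largest ratio among abundant genes came from 1 cell. Ccl5, a chemokine of T and NK cells and of some dendritic cells, stood at 60.2 and 405 CPM, a ratio of 6.73 (5.58 to 8.18), and a single high-B12 cell held 745 of the 889 UMIs. Without the top cell of each library Ccl5 stood at 47.2 and 65.6 CPM. That cell had 16456 UMIs, 24 of the 25 Cd3e UMIs and 64 of the 66 Nkg7 UMIs of the high-B12 cells, besides 11 Flt3, 53 H2-Aa and 4 Cd209a UMIs, and Scrublet had not marked it. It also held 241 of the 1096 UMIs of Ccl4, another chemokine, which stood at 225 and 499 CPM, a ratio of 2.22 (1.99 to 2.48) and without each top cell at 205 and 389 CPM. Free RNA held Ccl4 at 242 and 383 CPM.

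Of 18 measured cytokine and chemokine genes 11 were higher, 2 by 1.5-fold (background 2.92%), and 2 were lower by as much (background 7.83%). Of all genes 39.5% were higher. Tnf stood at 104 and 139 CPM, a ratio of 1.33 (1.11 to 1.59), in 88 and 91 cells. Il1b, the interleukin that activated myeloid cells release, stood at 100.1 and 125 CPM, a ratio of 1.247 (1.04 to 1.5), but 77 of its 208 low-B12 UMIs lay in 1 cell. Without each top cell Il1b stood at 63 and 109 CPM, and in free RNA at 431 and 768 CPM. Tgfb1 stood at 329 and 263 CPM, a ratio of 0.80 (0.714 to 0.895), Ccl9 at 271 and 205 CPM, a ratio of 0.757 (0.667 to 0.858) and Ccl6 at 382 and 369 CPM, a ratio of 0.968 (0.877 to 1.07). Ier3, an early target of NF-kB, stood at 26.9 and 78.8 CPM, a ratio of 2.92 (2.15 to 4.03), in 26 and 51 cells, and in free RNA at 75.6 and 181 CPM. The part of free RNA in these values was not tested.

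For receptors and transcription factors the background was 60.5% of all genes lower, 7.83% by 1.5-fold, with a median of -0.08. Of 26 growth factor and cytokine receptors 21 were lower, with a median of -0.18, and the 1 lower by 1.5-fold is a smaller share than that background. Flt3 stood at 220.4 and 171 CPM, a ratio of 0.775 (0.674 to 0.89) and Csf1r at 158 and 118 CPM, a ratio of 0.744 (0.63 to 0.879). Il6ra, a chain of the interleukin-6 receptor, stood at 207 and 144 CPM, a ratio of 0.696 (0.60 to 0.806). Of 41 myeloid transcription factors 31 were lower, 5 by 1.5-fold, with a median of -0.21. Klf4, needed by a part of the cDC2 lineage, stood at 497 and 355 CPM, a ratio of 0.715 (0.651 to 0.786). Runx1 stood at 568 and 393 CPM, a ratio of 0.692 (0.633 to 0.756), Zeb2 at 827 and 611 CPM, a ratio of 0.739 (0.688 to 0.794) and Cebpa at 114 and 72 CPM, a ratio of 0.634 (0.515 to 0.778). Irf8 stood at 69.8 and 85.2 CPM, a ratio of 1.22 (0.977 to 1.53) and Irf4 at 42.8 and 35.1 CPM, a ratio of 0.819 (0.596 to 1.12), with intervals across 1.

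Surface molecules of antigen presentation and migration differed gene by gene. Cd86, a co-stimulatory ligand for T cells, stood at 113 and 68.3 CPM, a ratio of 0.607 (0.491 to 0.748), in 79 and 62 cells, with 32 of 234 low-B12 UMIs in 1 cell. Cd40, the receptor for T-cell help, stood at 41.4 and 61 CPM, a ratio of 1.47 (1.12 to 1.96). Cd44, the hyaluronan receptor, stood at 325 and 207 CPM, a ratio of 0.638 (0.565 to 0.72), and Itgam, the integrin of the sort gate, at 176 and 131 CPM, a ratio of 0.745 (0.636 to 0.871). Ccr2 stood at 425 and 418 CPM, a ratio of 0.982 (0.894 to 1.08). Of 15 co-stimulation and checkpoint genes 7 were higher and 8 lower, and of 17 trafficking genes 14 were lower, 3 by 1.5-fold. Of all genes 60.5% were lower, 7.83% by 1.5-fold.

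The genes closest to the stated cDC2 identity were less uniform. Tmem176a stood at 470.2 and 615 CPM, a ratio of 1.31 (1.2 to 1.42) and its neighbour Tmem176b at 625 and 709.6 CPM, a ratio of 1.14 (1.05 to 1.22). Ckb stood at 274 and 293 CPM, a ratio of 1.07 (0.954 to 1.2) and Sirpa at 189 and 190.4 CPM, a ratio of 1.01 (0.875 to 1.16). Cd209a stood at 699 and 724 CPM, a ratio of 1.04 (0.965 to 1.11) and Clec10a at 282 and 281 CPM, a ratio of 0.997 (0.888 to 1.12). Zbtb46 stood at 52.5 and 51 CPM, a ratio of 0.972 (0.74 to 1.28). Of 12 dendritic cell core genes 8 were lower and none passed 1.5-fold, and of 10 common cDC2 genes 6 were higher and none passed it. Of all genes 60.5% were lower and 39.5% higher.

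Listed genes of oxidative phosphorylation and of ribosomes were shifted by small, even amounts, and those of the mitochondrial genome were not. Of 48 oxidative phosphorylation genes 44 were higher, none by 1.5-fold, with a median of 0.15, and Cox5a, of complex IV, stood at 249 and 322 CPM, a ratio of 1.29 (1.15 to 1.45). Of 89 ribosomal protein genes 80 were higher, 1 by 1.5-fold, with a median of 0.09. Of the 13 genes of the mitochondrial genome 4 were higher and 9 lower, none by 1.5-fold, with a median of -0.08. Of all genes 39.5% were higher, 2.92% by 1.5-fold. The shortest genes had a median of 0.05, and the part of gene length in these values was not tested. The median of the oxidative phosphorylation list was 0.18 in the other dendritic cells and 0.14 in the monocytes. All 13 mitochondrial genes were higher in the other dendritic cells, with a median of 0.27, where 45.4% of all genes were higher. In the monocytes 2 of 13 were higher, with a median of -0.09, where 39.6% of all genes were higher.

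Neutrophil RNA was more abundant with high B12. Of 14 listed neutrophil genes 7 were measured, 6 of them at least 1.5-fold higher (background 2.92%) and 1, Il1r2, lower by as much. S100a9 stood at 93.4 and 275 CPM, a ratio of 2.94 (2.5 to 3.48), but 1 low-B12 cell held 87 of its 194 UMIs, and without each top cell it stood at 51.5 and 238 CPM. S100a8, with 41 of 111 low-B12 UMIs in 1 cell, stood at 33.7 and 204 CPM without each top cell. Camp, an antimicrobial peptide of neutrophil granules, stood at 9.62 and 30.1 CPM, a ratio of 3.12 (1.87 to 5.44). In free RNA S100a9 stood at 16439 and 44012 CPM and Camp at 3446 and 8305 CPM. Ngp stood at 6.74 and 22.8 CPM, a ratio of 3.38 (1.84 to 6.62). S100a8 had a UMI in 58 and 167 cells, and the rule had capped S100a8 and S100a9. The part of free RNA in these values was not tested.

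Genes of the B12 pathway were divided evenly, and most of those for DNA methylation and chromatin were lower. Of 22 B12 and methionine cycle genes 8 were measured, 4 higher and 4 lower, with a median of -0.01. Mtr, the methionine synthase that uses B12, stood at 25.5 and 22.3 CPM, a ratio of 0.875 (0.581 to 1.32) on 53 and 49 UMIs, and Mat2a, which makes S-adenosylmethionine, at 206 and 208 CPM, a ratio of 1.01 (0.882 to 1.15). Tet2, the demethylase named in the series title, stood at 116 and 99.3 CPM, a ratio of 0.856 (0.709 to 1.03) and had a UMI in 56.3% and 52.6% of the cells. As its deleted part, if any, is not given, that level checks no genotype. Tet3 stood at 84.7 and 56.9 CPM, a ratio of 0.672 (0.53 to 0.85) and Dnmt3a at 65.5 and 50.6 CPM, a ratio of 0.772 (0.596 to 1.0). Of 13 genes of the Tet, Dnmt and chromatin list 10 were lower, with a median of -0.27, where 60.5% of all genes were lower. The 1 lower by 1.5-fold, against a background of 7.83%, was Dnmt1, the maintenance methyltransferase, named after its value was seen, at 19.7 and 12.3 CPM, a ratio of 0.623 (0.369 to 1.04).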

How the data were processed

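The deposited matrices give unnormalized UMI counts. Cell Ranger 4 is named in the file headers and version 2.1.1 of Cell Ranger in the submitters' processing notes, and the genome build is not given in the sources used here. Libraries were 10x 3' libraries of the v2 kit, per the labels. Gene IDs were matched to GENCODE M21 (32235 of 32285) for positions. Counts were summed over the chosen cells of each library and scaled to CPM. A log2 ratio added 0.5 UMI to each count. A gene was measured with at least 50 UMIs in both libraries together and counted as past the fold at 1.5-fold, or at 2-fold in both libraries between populations. With 1 library per condition no test was run.

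The cells and the gene lists were chosen with earlier results of these data known. Genes are named by size: up to 15 each way at 200 CPM or more whose interval leaves out a ratio of 5 to 4, up to 4 of a list at 50 CPM or more, the members at 50 CPM or more of the lectin, class II, dendritic cell, transcription factor, co-stimulation and cytokine lists, a few B12 and Tet genes, and up to 15 each way between populations. Genes below these levels, the cell with the most Ccl5, and the Lyz2 groups were picked after their values were seen. Some genes that this rule names are not reported here. The scripts were tested on simulated data. Doublets called by Scrublet were kept. Python 3.11.15, numpy 2.4.6, scipy 1.17.1, pandas 2.3.3, scanpy 1.11.5 and matplotlib 3.10.9 were used. Alternatives changed the scaling, the weighting of cells, depth, doublets, the lectin limit, the gene filter, other cell types' RNA, the share's denominator and the comparison cells.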

Additional observations from a re-analysis of the deposited data

Results flagged for a closer look

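For 3 flagged genes the ratio of high to low B12 pointed in opposite directions in the Cd209a and Clec10a cells and in another population of the same libraries. They are not the full count of such genes, and none of these differences was tested. Fn1, for example, stood at 154 and 93.8 CPM in the Cd209a and Clec10a cells and at 108 and 136 CPM in the dendritic cells with neither lectin. Bag3, a co-chaperone of Hsp70, had a log2 ratio of -1.20 in the Cd209a and Clec10a cells (70.3 and 30.5 CPM, low B12 first) and 0.63 in the dendritic cells with neither lectin (47.3 and 73.3 CPM). Ccl5 had a log2 ratio of 2.75 (60.2 and 405 CPM) against -1.56 in the same comparison cells (399 and 135 CPM), with 745 of the 889 high-B12 UMIs in 1 cell. Cxcl10 had a log2 ratio of -2.41 (52.0 and 9.56 CPM) against 1.58 in the Ly6c2 monocytes (11.5 and 34.8 CPM), with 57 of the 108 low-B12 UMIs in 1 cell.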

How the results depend on the processing

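No library could be left out, and no paired analysis was possible because each condition has 1 library. The share of chosen cells moved with its denominator, the thinning and the lectin limit. Over all cells it was 3.16% with low B12 and 3.16% with high B12. The shares were 3.94% and 6.2% over cells low in S100a8 and S100a9, 5.38% and 8.10% thinned to 3000 UMIs, 10.8% and 14.2% with a limit of 2 lectin UMIs, and 7.48% and 9.66% with 5. The counts of genes at least 1.5-fold higher and lower were 559 and 978 of 9262 at 20 UMIs per gene, 17 and 124 of 3035 at 200 UMIs per gene, and 435 and 851 of 6276 after thinning. Scaling by the median ratio adds 0.08 to each log2 ratio and left 332 lower. At 200 UMIs per gene the lower genes were 6 of 6 glucocorticoid-responsive, 5 of 5 nonclassical monocyte and 1 of 3 B12 genes, and the higher genes were 3 of 7 classical monocyte, 16 of 26 type I interferon, 7 of 11 cytokine and 2 of 2 neutrophil genes. At 20 UMIs per gene 8 of 15 B12 genes were lower. The shares of all genes higher and lower at these filters are not given here, so these list counts stand without a background. Scaled to total UMIs, 11 of 15 heat shock genes were lower, with a median of -0.05, where 60.5% of all genes were lower. With median scaling, which centres the genes at 0 by construction, 7 of 15 were lower and their median was 0.03. Against stricter dendritic cells with neither lectin, 161 genes were at least 2-fold higher. Ccl5 reversed to a log2 ratio of -0.30 with a limit of 5 lectin UMIs, which leaves out the cell that held most of it. Where nothing else is said, the cause was not tested. Of the alternatives for summary values 262 stayed close to the values given and 27 moved, and for single genes 1706 stayed, 79 moved and 1 reversed. Depth limits genes under about 50 UMIs, and differences between 2 libraries cannot be told apart from differences between mice, sorts or runs.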
